A study of Rattus norvegicus with 18 samples.

Results

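The mitochondrial ribosomal protein genes described here were the protein-coding rows of a rat liver expression table whose symbol starts with Mrpl or Mrps followed by a digit, 76 of 33657 genes. By symbol, 46 encode proteins of the large subunit (Mrpl) and 30 proteins of the small subunit (Mrps), and they lie on 19 chromosomes. Liver RNA of male rats 18 weeks old was sequenced in 6 groups of 3 libraries each. The normal control held healthy rats given water, and the obese control held obese rats given water. The remaining 4 groups were obese as well. Orlistat, an inhibitor of gut lipases that lowers fat absorption, was the positive control, and plantain was fed at a low, a medium or a high dose. The labels give no dose amounts, no strain and no means by which the rats became obese. They also do not state that the 3 libraries of a group came from separate animals, so a p-value here measures only the spread between libraries, which may be technical.

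Mitochondria hold their own ribosome, which translates the few messenger RNAs of the mitochondrial genome into membrane subunits of the respiratory chain and of ATP synthase. Its ribosomal RNAs are transcribed inside the organelle, while all of its proteins are encoded in the nucleus, made in the cytosol and imported. The small subunit binds the messenger RNA and hosts decoding, and the large subunit joins amino acids and releases the growing chain through an exit tunnel beside the inner membrane. Many of its proteins have no counterpart in bacterial ribosomes. Hepatocytes are rich in mitochondria.

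NRF1, the ETS-family factor GABP and YY1 are known to bind promoters of many nuclear genes for mitochondrial proteins, so the members' promoters were searched for a typical site of each. The searched letters were CTTCCGG for ETS factors and, for NRF1 and YY1, the longer runs shown in capitals in the windows below, which for NRF1 reads the same on both strands. Both strands were searched without mismatches in windows from 250 bases before to 50 bases after the start of transcription (RefSeq, build GRCr8). Of the 76 members, 60 symbols matched a RefSeq promoter, with 62 promoters in all because Mrpl14 and Mrps21 have more than 1 entry. At least 1 of the 3 motifs was present in 28 of the 62 promoters (45.2%), against 22.0% of 8829 promoters of tested protein-coding genes and 10.2% of all 33469 promoters. The ETS letters were in 21 (33.9%, against 18.3% and 8.75%), the YY1 letters in 7 (11.3%, against 2.88% and 0.98%) and the NRF1 letters in 4 (6.45%, against 1.98% and 0.852%). The 62 include promoters of Mrpl36 and Mrpl53, which are below the filter for tested genes. Among the 60 promoters of members that passed it, 26 (43.3%) held any of the 3 motifs. The ETS letters were in 19 of these (31.7%), the YY1 letters in 7 (11.7%) and the NRF1 letters in 4 (6.67%). No test was made of these shares, and a match is not a measured binding site. The windows below are only of members with a match, chosen among those named in the results that follow. Other members named there had none of the 3 motifs, among them Mrpl54, Mrpl14, Mrpl34, Mrps7 and Mrpl42. Matched letters are in capitals, and each window is read 5′ to 3′ on the strand of the gene.

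Mrps18b (NRF1, chr20:2842976-2843005, plus strand): tccttgtccgGCGCATGCGCagtcgttctt
Mrps18b (ETS, chr20:2842993-2843019, plus strand): cgcagtcgttCTTCCGGcaggccgtac
Mrpl58 (ETS, chr10:101145312-101145338, plus strand): agagtgcgcaCCGGAAGcggtcctggg
Mrpl23 (ETS, chr1:207116853-207116879, plus strand): agcgcggcctCCGGAAGcgagggggcg
Mrpl33 (ETS, chr6:30553980-30554006, minus strand): gccacatgccCCGGAAGcagttgttga
Mrpl52 (ETS, chr15:31852877-31852903, plus strand): aagatgtcggCTTCCGGttttccccgg
Mrps27 (ETS, chr2:32474148-32474174, plus strand): ggtccgtccaCTTCCGGcggaggcggg
Mrps27 (YY1, chr2:32474223-32474252, plus strand): ggtacgctccAAGATGGCGGcccccatggt
Mrpl37 (YY1, chr5:127074942-127074971, minus strand): tgcccgggcaAAGATGGCGGcgtccaggta
Mrpl3 (ETS, chr8:114548970-114548996, plus strand): gagaaacggaCCGGAAGtggctcagct
Mrps31 (ETS, chr16:76324143-76324169, minus strand): ctgtttcctaCCGGAAGccaaaaggag

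The promoter of Mrps18b holds the NRF1 letters with the ETS letters directly downstream, and that of Mrps27 holds the ETS and the YY1 letters. Mrpl3 and Mrps31 carry the ETS letters too, and their levels did not follow those of the other genes shown, as the values below give. Members with and without a motif are compared again after the group results.

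The libraries held 16.6 to 26.2 M (mega) reads on genes, of which 26640 to 42296 per library fell on the members (0.157% to 0.178% of reads). All 10 hepatocyte markers looked for, among them Alb and Apoa1, were present in every library, with a summed level of 80411 to 99587 FPKM (fragments scaled by gene length and library total). In bulk liver RNA, fewer cells of a type and less RNA per cell cannot be told apart. Tests used limma on log2(FPKM + 1) over the 11945 genes that reached 1 FPKM in 3 or more libraries, with p-values adjusted over all of these by the Benjamini-Hochberg method and a threshold of 0.05. A fold difference is therefore on the log2(FPKM + 1) scale, given with its standard error.

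Of the 76 members, 73 passed the filter, 44 of the large and 29 of the small subunit. Their mean over the 18 libraries ran from 1.69 to 127 FPKM with a median of 20.5 FPKM. The 3 highest were Mrpl33 (127 FPKM), Mrpl54 (63.4 FPKM) and Mrpl43 (55.5 FPKM), all proteins of the large subunit. The 3 lowest that passed were Mrpl1 (2.90 FPKM), a protein of the mobile L1 stalk, Mrpl47 (2.41 FPKM) and Mrpl30 (1.69 FPKM). FPKM is scaled by gene length, so these levels can be set beside each other only roughly. How far gene length itself sets the ranks was not tested, and the short length of Mrpl33 is given below. The 3 members below the filter were Mrps21l, at 0 to 0.480 FPKM, Mrpl36, at 0 in all libraries but 1 (0.052 FPKM), and Mrpl53, listed at 0 in all 18. Rows outside the name rule also carry the descriptions L36 and L53. LOC100910528, described as L36-like, stood at 0.382 to 4.75 FPKM on 2 to 29 reads per library, and LOC103692169, described as L53, is given below.

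Summed over the 76 members, the level was highest in the obese control. The sums were 1535, 1547 and 1520 FPKM in the normal control, 1824, 1782 and 1813 in the obese control and 1483, 1518 and 1476 with orlistat. With plantain they were 1678, 1690 and 1694 at the low dose, 1675, 1661 and 1653 at the medium dose and 1549, 1522 and 1532 at the high dose. Every obese control library lay above every other library, the low and medium doses lay between, and the normal control, orlistat and high-dose libraries formed the lower end, with the high dose and the normal control overlapping. As mean ± SD (n = 3) the obese control had 1806 ± 22.0 FPKM, the low dose 1688 ± 8.49, the medium dose 1663 ± 10.8, the high dose 1534 ± 13.7, the normal control 1534 ± 13.7 and orlistat 1492 ± 22.1.

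The groups stood closer on another scale. When each library was rescaled to a fixed sum (TPM), the members summed to 3016, 2922 and 3021 TPM in the obese control and 2875, 3006 and 2928 TPM at the medium dose, which overlapped, and to 2883, 2843 and 2895 TPM at the low and 2893, 2858 and 2863 TPM at the high dose. The normal control (2793, 2755 and 2743 TPM) and orlistat (2786, 2762 and 2779 TPM) remained the 2 lowest groups. The summed FPKM of all genes, by which TPM divides, itself differed between groups, from 531108 to 549373 with orlistat to 600174 to 609662 in the obese control.

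**Figure D1:**
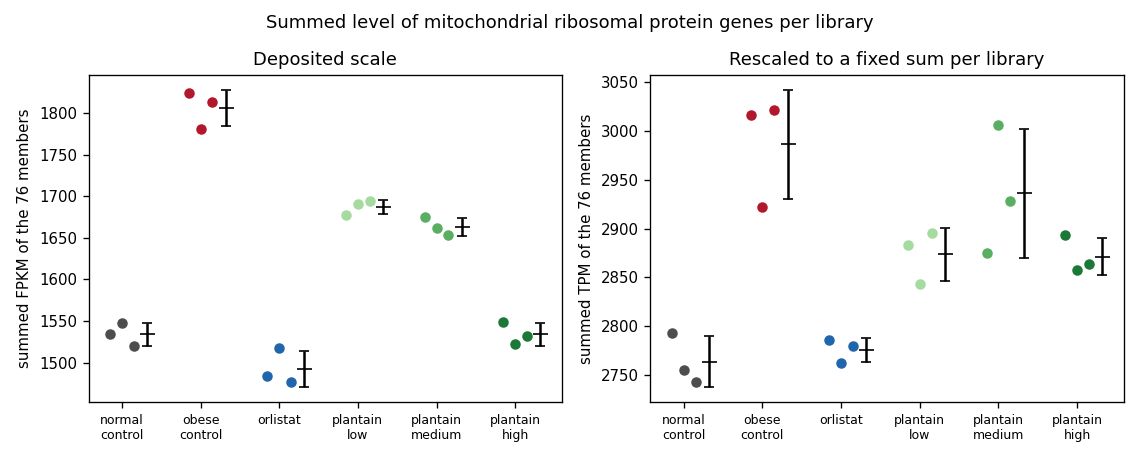
Summed level of the 76 members in each library, as deposited FPKM (left) and rescaled to TPM (right), by group, with the mean ± SD of 3 libraries as a black bar beside the points; the axes do not start at 0. On the left all obese control libraries (1782 to 1824 FPKM) lie above all others, while on the right the obese control overlaps the medium dose.

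In the obese control against the normal control, the mitochondrial ribosomal protein genes were higher far more often than lower. Of the 73 tested members 41 rose (56.2%, against 26.7% of all tested genes) and 1 fell (1.37%, against 28.4%). The members' median log2 difference was 0.17, beside 0.00 for all tested genes. The share called in either direction, 57.5%, was close to the 55.1% of all tested genes. Libraries of both groups did not overlap for 43 members that were higher and 4 that were lower in the obese control (background 30.5% and 32.0%).

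Mrpl54, a large-subunit protein particular to mitochondrial ribosomes, had the largest rise. It measured 52.0, 50.7 and 53.5 FPKM in the normal control libraries and 81.4, 87.2 and 84.8 FPKM in the obese control libraries. The groups were far apart, and the log2 difference was 0.69 ± 0.03 (adjusted p = 3.3e-11). Mrpl14, which sits at the interface between the subunits, went from 25.6, 27.4 and 26.7 FPKM to 38.6, 39.2 and 39.7 FPKM, again without overlap, a difference of 0.54 ± 0.06 (adjusted p = 7.6e-07). Mrpl34, a small protein of the large subunit, rose by 0.52 ± 0.05 (adjusted p = 2.6e-07), from 34.4 ± 1.93 to 49.9 ± 3.37 FPKM (mean ± SD, n = 3). Mrpl23, which lines the exit of the tunnel, rose by 0.48 ± 0.07 (adjusted p = 3.2e-05). Mrps7, which binds ribosomal RNA in the head of the small subunit, measured 21.8, 25.6 and 24.7 FPKM against 35.1, 31.2 and 33.0 FPKM and rose by 0.45 ± 0.06 (adjusted p = 1.0e-05). The Mrps7 locus overlaps Gga3, on the other strand, by 772 bases. Gga3 stood at 1.26 FPKM on average, and the part of shared reads was not tested.

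The 1 member that fell was Mrps5, near the entry of the messenger RNA channel, from 8.004, 9.04 and 7.95 FPKM to 6.97, 7.19 and 7.46 FPKM. Its groups did not overlap, but the difference of -0.18 ± 0.07 (adjusted p = 0.026) lost its call without normal control library 2 (-0.13, adjusted p = 0.13), obese control library 1 (-0.16, adjusted p = 0.082) or obese control library 2 (-0.18, adjusted p = 0.057). Mrpl1 had the lowest log2 difference of all members (-0.66) and was not called, with libraries at 3.60, 3.42 and 2.97 FPKM and 2.80, 0.535 and 2.52 FPKM, obese control library 2 far below the rest.

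Gene length moved with the comparison. The tested members have a median length of 1149 bases against 2104 bases for all tested genes, and 61 of the 73 are shorter than that median. Over all tested genes the log2 difference between obese and normal control had a Spearman correlation of -0.23 with gene length, across genes, which are not independent replicates. When the trend of each library's values with length was removed, 28 members rose and 4 fell (38.4% and 5.48%, against 27.2% and 25.9% of all tested genes), with a median of 0.09. In TPM, 20 members rose and 7 fell (27.4% and 9.59%, against 16.5% and 38.3% of all tested genes). The median of all tested genes moved to -0.11. Relative to that shift the members' median was 0.16 in TPM and 0.17 on the deposited scale. TPM multiplies each library by a single constant, so here and in the comparisons below this relative median was bound to change little. What part length has in the difference was not tested further.

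The plot of the members' log2 differences has most members above 0 in obese against normal control, and the medians of the 4 treatment comparisons against the same obese control below 0. Because these 5 comparisons share the obese control libraries, their directions are not independent of each other, and each is given by its own values.

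**Figure D2:**
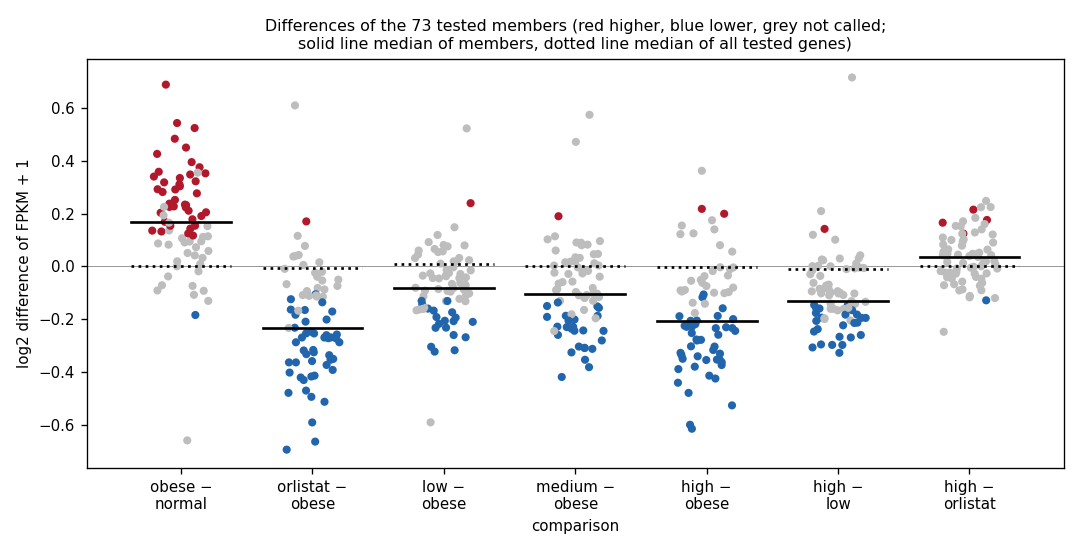
Log2 difference of FPKM + 1 for each of the 73 tested members (points) in 7 comparisons, red where called higher, blue where called lower and grey where not called at an adjusted p of 0.05 (limma). The members' median (solid line) is 0.17 in obese against normal control and -0.23 with orlistat against the obese control, while the median of all tested genes (dotted line) stays near 0.

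With orlistat against the obese control, 46 of 73 members fell (63.0%, against 25.6% of all tested genes) and 1 rose (1.37%, against 26.2%). The members' median log2 difference was -0.23, beside -0.01 for all tested genes. Orlistat libraries lay wholly below the obese control for 50 members (background 28.8%) and wholly above it for 2 (background 29.4%). Without the trend with gene length 30 members fell and 2 rose (41.1% and 2.74%, against 24.4% and 24.0% of all tested genes). In TPM 22 fell and 5 rose (30.1% and 6.85%, against 13.1% and 41.8% of all tested genes). The median of all tested genes moved to 0.14, and relative to it the members' median was -0.23.

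Mrpl54 again had the largest difference. Its orlistat libraries measured 52.1, 53.3 and 50.2 FPKM, overlapping the normal control and far under the obese control, a difference of -0.69 ± 0.03 (adjusted p = 5.7e-11). Mrps18b, 1 of the 3 related Mrps18 proteins, measured 19.1, 20.042 and 19.6 FPKM in the obese control and 12.7, 11.8 and 11.5 FPKM with orlistat. That difference was -0.66 ± 0.04 (adjusted p = 7.2e-09), and the orlistat libraries also lay below all normal control libraries (14.6, 14.5 and 15.5 FPKM). Mrps7 fell to 21.0, 23.2 and 20.7 FPKM (-0.59 ± 0.06 (adjusted p = 6.5e-07)) and Mrpl14 to 27.6, 28.3 and 25.6 FPKM (-0.51 ± 0.06 (adjusted p = 1.8e-06)). Mrpl58, also known as Ict1, a peptidyl-tRNA hydrolase built into the large subunit, went from 29.3, 29.1 and 27.5 FPKM to 20.2, 21.4 and 18.7 FPKM without overlap, a difference of -0.49 ± 0.05 (adjusted p = 7.2e-07).

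Mrpl3, a protein that reaches toward the peptidyl transferase centre, was the 1 member that rose with orlistat. It measured 18.2, 18.3 and 16.5 FPKM in the obese control and 18.7, 20.2 and 21.1 FPKM with orlistat, and the groups came close without overlapping. The difference of 0.17 ± 0.05 (adjusted p = 0.011) lost its call without obese control library 3 (0.12, adjusted p = 0.062) or orlistat library 3 (0.13, adjusted p = 0.057).

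**Figure D3:**
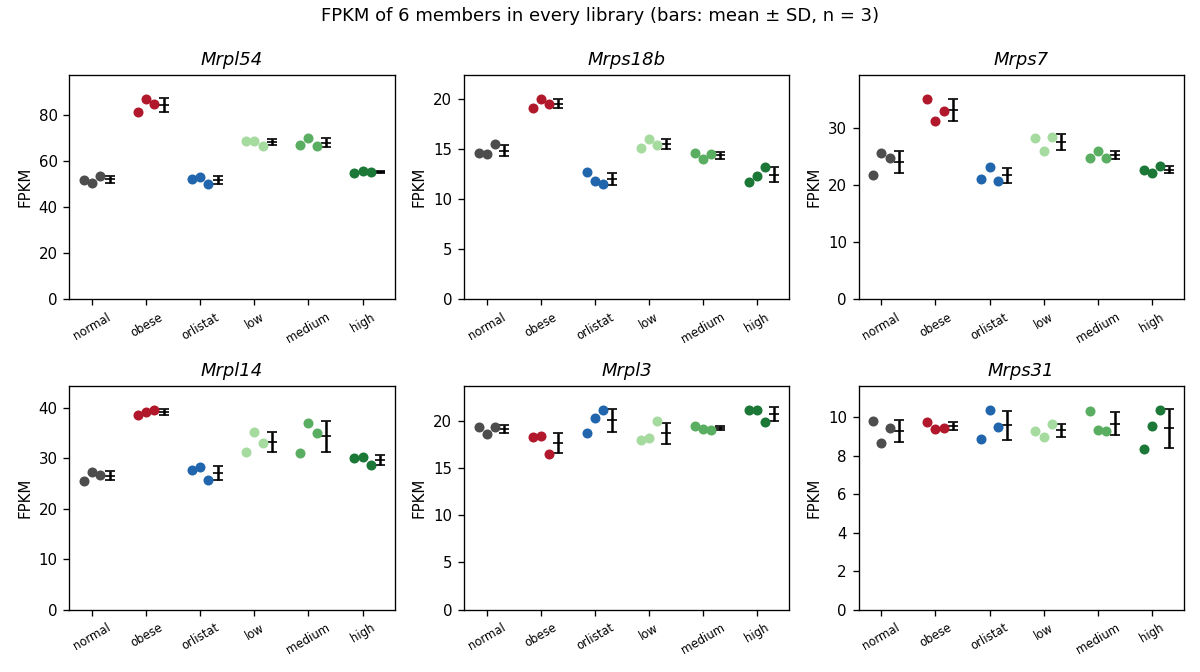
FPKM of Mrpl54, Mrps18b, Mrps7, Mrpl14, Mrpl3 and Mrps31 in every library, by group, with mean ± SD (n = 3) beside the points and axes starting at 0. The first 4 are highest in the obese control (Mrpl54 at 81.4, 87.2 and 84.8 FPKM), Mrpl3 has its lowest mean there (18.2, 18.3 and 16.5 FPKM), and Mrps31 overlaps in all groups.

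Of the 4 treatments, the low dose of plantain had the fewest members called against the obese control. Of the 73 members 19 fell (26.0%, against 14.8% of all tested genes) and 1 rose (1.37%, against 18.3%), with a median of -0.08 beside 0.01 for all tested genes. The libraries did not overlap for 25 members that were lower and 4 that were higher (background 20.6% and 24.2%). Mrps28, a small-subunit protein, measured 18.9, 19.4 and 21.4 FPKM in the obese control and 15.6, 16.2 and 15.4 FPKM at the low dose and had the largest fall among called members, by 0.32 ± 0.06 (adjusted p = 0.001) on the log2 scale. Mrps18b followed at 15.1, 16.0 and 15.4 FPKM (-0.32 ± 0.04 (adjusted p = 5.0e-05)) and Mrpl54 at 69.0, 69.0 and 66.7 FPKM (-0.30 ± 0.03 (adjusted p = 1.7e-06)). Both were below every obese control library and, for Mrpl54, above every normal control library. Mrps27, a pentatricopeptide repeat protein that binds RNA, fell by 0.27 ± 0.07 (adjusted p = 0.009) and Mrps7 by 0.26 ± 0.06 (adjusted p = 0.0031).

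Mrps10, a protein of the small-subunit head, was the 1 member that rose at the low dose, from 5.01, 5.07 and 5.65 FPKM to 6.31, 6.25 and 6.53 FPKM. The difference of 0.24 ± 0.08 (adjusted p = 0.036) lost its call when any 1 of obese control libraries 1 and 2 or the 3 low-dose libraries was left out, with adjusted p between 0.065 and 0.11. At the medium dose the same gene stood lower, at 4.11, 4.16 and 4.13 FPKM, than in either group. Removing the length trend left 16 members lower and 1 higher (21.9% lower, against 15.4% of all tested genes). TPM gave 13 lower and 1 higher (17.8% and 1.37%, against 10.9% and 22.4%), with an all-gene median of 0.05.

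At the medium dose 26 members were below the obese control (35.6%, against 20.1% of all tested genes) and 1 was above it (1.37%, against 21.8%). The median was -0.10, beside 0.00 for all tested genes, and 32 members were lower without overlap (background 24.0%). Mrps18b had the largest fall, to 14.7, 14.0 and 14.5 FPKM (-0.42 ± 0.04 (adjusted p = 2.0e-06)), with its 3 medium-dose libraries overlapping the normal control. Mrps7 stood at 24.7, 26.0 and 24.8 FPKM (-0.38 ± 0.06 (adjusted p = 9.2e-05)), overlapping the normal control. Mrpl42, a large-subunit protein, fell from 29.3, 32.1 and 27.6 FPKM to 23.6, 23.0 and 22.2 FPKM (-0.35 ± 0.05 (adjusted p = 7.5e-05)). Mrpl34 (-0.33 ± 0.05 (adjusted p = 7.6e-05)) and Mrps27 (-0.31 ± 0.07 (adjusted p = 0.0025)) also fell. The member called higher was Mrps35, named here after its value was seen, with a difference of 0.19 ± 0.07 (adjusted p = 0.031) and overlapping libraries (12.4, 10.5 and 10.8 FPKM and 13.8, 12.6 and 12.4 FPKM). Its call was lost without obese control library 2 or 3 or medium-dose library 1 (adjusted p 0.098 to 0.13), and with no filter or only the 2 groups in the fit. Without the length trend 22 members were lower and 2 higher (30.1% lower, against 20.3%). TPM gave 15 lower and 7 higher (20.5% and 9.59%, against 12.1% and 31.4% of all tested genes). The all-gene median was 0.08, and the members' median relative to it was -0.10.

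At the high dose, member counts and values were near those with orlistat. Against the obese control 43 of 73 members fell (58.9%, against 25.3% of all tested genes) and 2 rose (2.74%, against 26.6%), with a median of -0.20 beside 0.00 for all tested genes. The libraries did not overlap for 45 lower and 3 higher members (background 28.2% and 29.7%). Mrps18b measured 11.8, 12.4 and 13.2 FPKM, the difference being -0.61 ± 0.04 (adjusted p = 1.8e-08). Mrpl54 measured 55.0, 55.8 and 55.5 FPKM, a tight group just above the normal control (-0.60 ± 0.03 (adjusted p = 3.2e-10)). Mrps7 stood at 22.6, 22.2 and 23.3 FPKM (-0.53 ± 0.06 (adjusted p = 2.4e-06)), overlapping the orlistat and normal control libraries. Mrpl23 fell from 42.2, 40.4 and 44.2 FPKM to 33.6, 27.1 and 29.7 FPKM (-0.48 ± 0.07 (adjusted p = 4.3e-05)), and Mrpl42 from 29.7 ± 2.27 to 21.6 ± 1.42 FPKM (mean ± SD, n = 3; -0.44 ± 0.05 (adjusted p = 5.7e-06)).

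Mrpl3 was higher at the high dose as well, at 21.2, 21.1 and 19.8 FPKM, all above the obese control (0.22 ± 0.05 (adjusted p = 0.002)). The other member called higher, Mrpl46, was named after its value was seen. Its libraries overlapped (8.26, 6.51 and 7.83 FPKM in the obese control and 9.45, 8.68 and 8.20 FPKM at the high dose), with a difference of 0.20 ± 0.07 (adjusted p = 0.033). The call was lost without obese control library 2 or high-dose library 1 or 2 (adjusted p 0.06 to 0.18). Removal of the length trend left 27 members lower and 7 higher (37.0% and 9.59%, against 24.4% and 24.4% of all tested genes). In TPM 19 of the 73 members were lower and 8 higher, against 12.4% lower and 43.3% higher of all tested genes. The all-gene median moved to 0.15, and relative to it the members' median was -0.19.

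Between the doses, 25 members were lower at the high than at the low dose (34.2%, against 16.4% of all tested genes) and 1 was higher (1.37%, against 16.2%). The median was -0.13, beside -0.01 for all tested genes, and 33 members were lower without overlap (background 22.3%). Mrpl58 had the largest fall, from 28.4, 28.5 and 27.5 FPKM at the low dose to 22.2, 21.8 and 22.6 FPKM at the high dose (-0.33 ± 0.05 (adjusted p = 1.3e-04)). At the low dose Mrpl58 overlapped the obese control (29.3, 29.1 and 27.5 FPKM). Mrpl35 fell by 0.31 ± 0.06 (adjusted p = 8.5e-04), Mrps15 by 0.30 ± 0.05 (adjusted p = 5.8e-04), Mrps18b by 0.30 ± 0.04 (adjusted p = 1.2e-04) and Mrpl54 by 0.30 ± 0.03 (adjusted p = 3.2e-06). The member called higher was Mrpl3 (0.14 ± 0.05 (adjusted p = 0.042)), with overlapping libraries. That call was lost in 9 of the 18 fits that left out 1 library, 4 of them without a low- or high-dose library (adjusted p 0.0502 to 0.15 over the 9), and under 4 other alternatives. The count of lower members depended on the scale. Without the length trend 12 members were lower and 1 higher (16.4% lower, near the 14.4% of all tested genes). TPM gave 5 lower and 5 higher (6.85% each, against 6.92% lower and 33.5% higher of all tested genes). The all-gene median was 0.11 and the members' median 0.00. Relative to all tested genes the members' median was -0.11 in TPM and -0.12 on the deposited scale, a value that TPM could hardly change.

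The high dose and orlistat differed in few members. In the high dose 4 were higher than with orlistat (5.48%, against 8.45% of all tested genes) and 1 was lower (1.37%, against 6.67%), shares at or under the background, with a median of 0.04. Mrpl12, which forms the stalk and is known to bind the mitochondrial RNA polymerase, measured 25.9, 26.8 and 24.1 FPKM with orlistat and 28.9, 29.7 and 28.6 FPKM at the high dose (0.18 ± 0.05 (adjusted p = 0.032)). Mrpl37 (0.17 ± 0.04 (adjusted p = 0.015)) and Mrpl52 (0.12 ± 0.04 (adjusted p = 0.037)), both large-subunit proteins, were higher without overlap, and Mrps12, a protein of the decoding centre named after its value was seen, was higher with overlap (0.21 ± 0.07 (adjusted p = 0.037)). Mrpl15 was lower (-0.13 ± 0.04 (adjusted p = 0.025)). Leaving out 1 library ended each of these 5 calls. Mrps12 was lost without orlistat library 1 or 3 or high-dose library 1 or 2 (adjusted p 0.065 to 0.15). Mrpl12 was lost without any 1 of orlistat libraries 1 and 3 or the 3 high-dose libraries (adjusted p 0.056 to 0.14), and Mrpl52 without any 1 of the 3 orlistat libraries or high-dose libraries 2 and 3 (adjusted p 0.062 to 0.14). Mrpl37 was lost without orlistat library 2 or high-dose library 2 (adjusted p 0.077 and 0.061), and Mrpl15 without orlistat library 2 or high-dose library 3 (adjusted p 0.12 and 0.11).

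**Figure D4:**
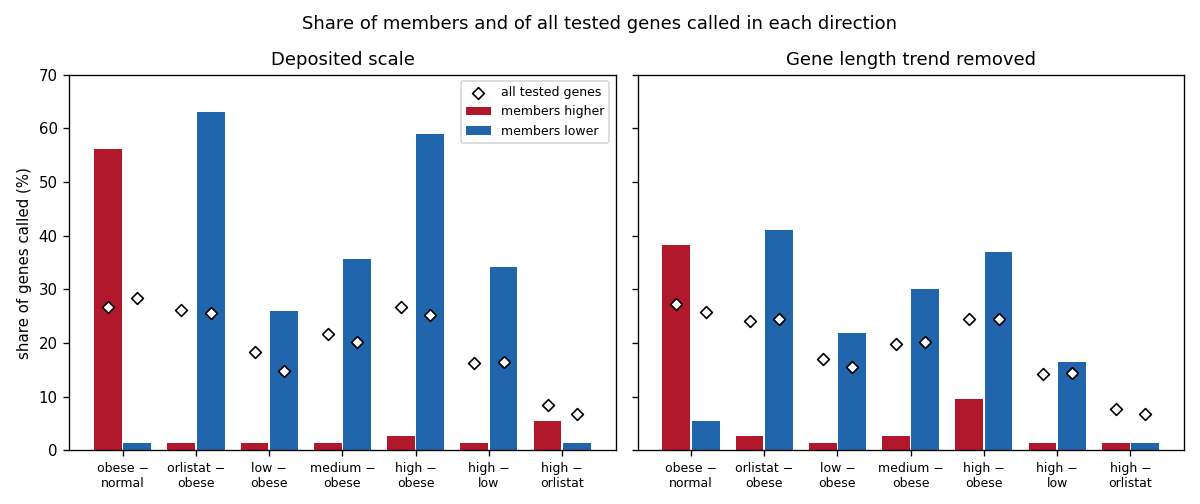
Share of the 73 tested members called higher (red) or lower (blue) in each comparison, on the deposited scale (left) and after removal of each library's trend with gene length (right), with open diamonds for the share of all 11945 tested genes called in the same direction. Members lower with orlistat went from 63.0% to 41.1%, and in the high dose against the low dose the bar comes close to the diamond.

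Over all 6 groups, an F-test called 50 of 73 members different between groups (68.5%), near the 72.1% of all tested genes. The smallest p-values belonged to Mrpl54, Mrps18b, Mrpl52, Mrpl58, Mrpl34 and Mrpl14. The obese control had the highest group mean for 44 of the 73 (60.3%, against 24.8% of all tested genes). The lowest mean was with orlistat for 26 (17.1% of all tested genes), in the normal control for 20 (24.4%) and at the high dose for 19 (13.0%). Mrpl54 followed this order closely, with means ± SD of 84.5 ± 2.92 FPKM in the obese control, 68.2 ± 1.32 at the low, 68.1 ± 2.01 at the medium and 55.4 ± 0.424 at the high dose, 52.1 ± 1.38 in the normal control and 51.9 ± 1.57 with orlistat (n = 3). The low and medium doses overlapped, as did the normal control and orlistat.

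**Figure D5:**
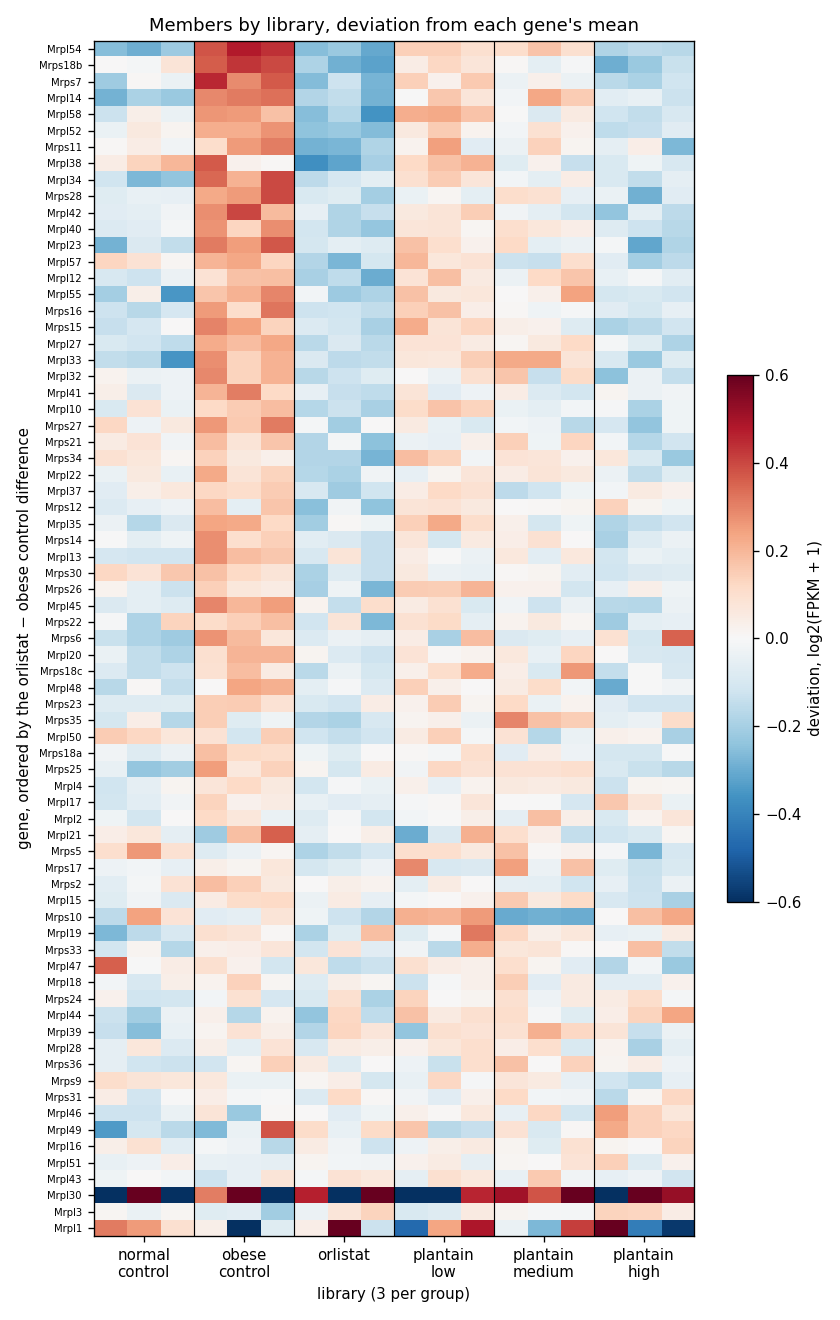
Deviation of log2(FPKM + 1) from each gene's mean over the 18 libraries, for the 73 tested members (rows, ordered by the orlistat minus obese control difference) and the libraries (columns, 3 per group); colours are capped at 0.6 in either direction, which Mrpl30 and Mrpl1 exceed. The obese control columns are red for most rows, and the orlistat and high-dose columns are blue for most rows down to about Mrpl15.

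Mrps31 and Mrpl51 had the narrowest spread of group means relative to their level. Mrps31, a small-subunit protein, ran from 8.35 to 10.4 FPKM over all 18 libraries and Mrpl51, of the large subunit, from 8.87 to 10.5 FPKM. Neither gene was called in any of the 7 comparisons, with Mrps31 differences between -0.03 and 0.03 and Mrpl51 differences between -0.04 and 0.08. Mrpl43, among the 3 highest members, was -0.02 in obese against normal control and 0.08 with orlistat, with SE 0.06. Its end overlaps Twnk on the other strand by 48 bases. The widest relative spreads were those of Mrpl30 and Mrpl54.

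In obese against normal control 26 of 44 large-subunit members rose (59.1%) and 0 fell, with a median of 0.21. Of 29 small-subunit members 15 rose (51.7%) and 1 fell, with a median of 0.15. Among all tested genes 26.7% rose and 28.4% fell. With orlistat 27 large-subunit (61.4%) and 19 small-subunit (65.5%) members fell, against 25.6% of all tested genes, with medians of -0.24 and -0.23. At the high dose the counts were 26 and 17 (59.1% and 58.6%, against 25.3% of all tested genes) and the medians -0.22 and -0.20. The difference between subunits was not tested. Symbols do not always give the place of a protein: Mrps18a and Mrps30 are known to sit in the large subunit, and Mrps36 is now assigned to the 2-oxoglutarate dehydrogenase complex.

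Related proteins and proteins of the same site, named here with their values known, are given side by side, with no test between them. The paralogs Mrps18a, Mrps18b and Mrps18c differed from the obese control by -0.16, -0.66 and -0.21 with orlistat, and by -0.20, -0.61 and -0.19 at the high dose. The calls of Mrps18a and Mrps18c were lost in TPM and without the length trend (Mrps18c at -0.05 with orlistat and -0.05 at the high dose), and those of Mrps18c also without single libraries (adjusted p 0.061 to 0.1 and 0.0502 to 0.15). The stalk proteins Mrpl10 and Mrpl12 differed by -0.32 and -0.36 with orlistat and by -0.01 and -0.04 at the low dose. At the tunnel exit, Mrpl22 rose by 0.15 ± 0.05 (adjusted p = 0.018) in the obese control, Mrpl23 by the 0.48 given above and Mrpl45, which anchors the ribosome to the inner membrane, by 0.32 ± 0.06 (adjusted p = 4.1e-04). The call of Mrpl22 was lost without normal control library 1 or 3 or obese control library 1 (adjusted p 0.065 to 0.093), and without the length trend its difference was 0.00. With orlistat the same 3 differed by -0.27, -0.39 and -0.25. Mrpl44, which has an RNase III-like fold, differed by 0.09 ± 0.09 (adjusted p = 0.42) and -0.05 ± 0.09 (adjusted p = 0.65) and was not called in either. Mrps36 showed 0.11 in the obese control and -0.02 with orlistat, also not called. Mrpl33, the member with the highest mean FPKM, measured 114, 113 and 98.7 FPKM in the normal and 153, 139 and 146 FPKM in the obese control (0.43 ± 0.06 (adjusted p = 1.6e-05)). Its gene length is 236 bases, against a median of 1149 bases for the tested members.

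The calls were also set beside the promoter motifs, and the difference between members with and without a match was not tested. Of 26 tested members with a match to any of the 3 motifs 19 fell with orlistat (median -0.24), and of 32 with no match 18 fell (median -0.24). Among all tested genes 25.6% fell. At the high dose 17 of 26 and 19 of 32 fell (25.3% of all tested genes), with medians of -0.21 and -0.23. In obese against normal control 16 of 26 and 20 of 32 rose (26.7% of all tested genes), with medians of 0.16 and 0.21. Mrpl54, with the largest differences in obese against normal control and with orlistat, had none of the 3 motifs in its window. This says only that these letters are not there. Mrps18b, with the largest fall at the high dose, holds the NRF1 and the ETS letters.

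As a description across the 18 libraries, which share groups and library scale, pairs of members had a median Pearson correlation of 0.30 with 77.1% of pairs above 0, against 0.00 and 50.1% for all pairs of tested genes. A member's correlation with the mean of the others had a median of 0.65 and ran from -0.67 for Mrpl3 to 0.94 for Mrpl54, with 64 of 73 above 0.

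Several measured quantities differed between the groups beside the members, not all of them in the order of the members. The share of reads on mitochondrially encoded genes was 7.86 to 8.38% in the obese control, 6.20 to 6.65% in the normal control, 5.50 to 5.97% with orlistat, 6.73 to 7.30% at the low, 6.26 to 6.95% at the medium and 4.59 to 4.70% at the high dose. The sum of the 10 hepatocyte markers, most of it Alb, was also highest in the obese control (97286 to 99587 FPKM, against 85468 to 90879 in the normal control and 80411 to 86162 with orlistat). At the low, medium and high dose it was 89866 to 94641, 89779 to 94294 and 89204 to 89450 FPKM. Singly these markers were mixed: 6 were called higher in the obese than in the normal control, Alb was not called (0.06 ± 0.04 (adjusted p = 0.17)), and Cps1 (-0.37 ± 0.01 (adjusted p = 5.9e-12)), Cyp2e1 (-0.39 ± 0.02 (adjusted p = 2.7e-10)) and Hnf4a (-0.05 ± 0.02 (adjusted p = 0.035)) were lower. All 5 red blood cell markers were found, and their sum was 848 to 896 FPKM in the normal control, 1364 to 1654 in the obese control and 1086 to 1455 with orlistat. At the low, medium and high dose it was 935 to 1142, 1115 to 1369 and 1044 to 1283 FPKM. The 7 endothelial markers found of 8 summed to 45.5 to 46.4 FPKM in the normal control, 60.9 to 62.8 in the obese control and 90.8 to 91.9 with orlistat. At the low, medium and high dose they summed to 86.0 to 87.7, 87.7 to 89.6 and 103 FPKM. The 10 Kupffer cell and macrophage markers summed to 180.5 to 182 FPKM in the normal control, 303 to 312 in the obese control and 317 to 337 with orlistat. Their sums at the low, medium and high dose were 384 to 395, 251 to 258 and 255 to 259.6 FPKM. The 4 neutrophil markers summed to 4.48 to 5.38 FPKM in the normal control, 10.3 to 10.5 in the obese control and 5.52 to 8.59 with orlistat. They were highest at the low dose (12.5 to 13.7 FPKM), with 10.5 to 10.9 at the medium and 10.992 to 11.6 at the high dose. The 3 exocrine pancreas markers found of 4, of which 1 was at 0 in every library, summed to 8.02 to 8.98 FPKM in the normal control, 12.4 to 12.6 in the obese control, 8.64 to 9.53 with orlistat and 8.66 to 10.6, 8.48 to 10.9 and 8.26 to 8.99 at the 3 doses, so the obese control was highest for these as well. The authors' scaling total was 0.974 ± 0.0053 times the reads on genes in the obese control, 1.03 ± 0.0025 at the high dose and 1.04 ± 0.012 with orlistat (mean ± SD, n = 3). The part of these quantities in the members' differences was not tested.

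Of 6 further symbols listed for mitochondrial ribosomal proteins, 5 were found, and the sixth, Ict1, is the other name of the member Mrpl58. In obese against normal control 3 of these 5 rose and 1 fell, and with orlistat 4 fell and 1 rose. Aurkaip1, of the small subunit, rose by 0.12 ± 0.03 (adjusted p = 0.0064) in the obese control and differed from it by -0.87 ± 0.03 (adjusted p = 1.2e-11) with orlistat, -0.53 at the low, -0.45 at the medium and -0.94 ± 0.03 (adjusted p = 6.0e-12) at the high dose. All 4 were called, and each was larger than the largest called fall of a member in the same comparison. Ptcd3, an RNA-binding small-subunit protein named here outside the naming rule, fell in the obese control (-0.12 ± 0.04 (adjusted p = 0.024)) and rose with orlistat (0.14 ± 0.04 (adjusted p = 0.01)). Chchd1 fell with orlistat (-0.20 ± 0.05 (adjusted p = 0.0037)). Gadd45gip1, of the large subunit, rose by 0.45 ± 0.05 (adjusted p = 3.4e-06) and fell with orlistat (-0.65 ± 0.05 (adjusted p = 6.9e-08)). Dap3, a GTP-binding small-subunit protein, rose by 0.17 ± 0.05 (adjusted p = 0.0087).

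Other lists of mitochondrial gene expression are given as counts, beside shares of all tested genes of 26.7% higher and 28.4% lower in the obese control, 26.2% and 25.6% with orlistat and 26.6% and 25.3% at the high dose. Of 15 translation factors and messenger RNA binding proteins, 1 rose and 3 fell in the obese control, and 2 rose and 3 fell with orlistat, all shares below those of all tested genes. Lrpprc, which stabilises mitochondrial messenger RNAs, differed from most members in its direction, falling in the obese control (-0.39 ± 0.02 (adjusted p = 6.7e-10)) and rising with orlistat (0.41 ± 0.02 (adjusted p = 5.8e-10)) and at the high dose (0.40 ± 0.02 (adjusted p = 9.7e-10)). Its partner Slirp fell with orlistat (-0.35 ± 0.08 (adjusted p = 0.0027)), as did the elongation factor Tufm (-0.24 ± 0.03 (adjusted p = 2.4e-06)). Of 21 tested assembly and rRNA modification factors 2 rose and 1 fell in the obese control and 4 fell and 1 rose with orlistat. Among these, Rcc1l rose in the obese control and fell with orlistat (0.45 ± 0.07 (adjusted p = 3.8e-05) and -0.26 ± 0.07 (adjusted p = 0.0041)). Of 18 tested mitochondrial aminoacyl-tRNA synthetase genes 0 fell at the high dose and 5 rose. Of these, Lars2 differed by 0.41 ± 0.07 (adjusted p = 1.9e-04) and Iars2, with the smallest p-value, by 0.37 ± 0.04 (adjusted p = 8.4e-07). Iars2 was lower in the obese than in the normal control (-0.25 ± 0.04 (adjusted p = 4.6e-05)).

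Among 10 genes of mitochondrial transcription and genome copying, 1 rose and 1 fell in the obese control: Polg, the mitochondrial DNA polymerase, rose by 0.72 ± 0.03 (adjusted p = 9.5e-12) and Polrmt, the RNA polymerase, fell (-0.17 ± 0.05 (adjusted p = 0.0081)). Of 10 regulators of mitochondrial genes 2 rose and 6 fell in the obese control. Ppargc1a, the coactivator PGC-1alpha, fell (-0.80 ± 0.10 (adjusted p = 5.5e-06)) and Gabpb1, a GABP subunit, rose (0.52 ± 0.08 (adjusted p = 6.5e-05)). At the high dose 6 rose and 1 fell, with Ppargc1a higher (0.45 ± 0.10 (adjusted p = 0.0014)) together with Gabpa (0.39 ± 0.08 (adjusted p = 5.1e-04)) and Esrra (0.28 ± 0.05 (adjusted p = 2.5e-04)). Of 17 genes of protein import and of mitochondrial proteases 4 rose and 5 fell in the obese control, and 6 rose and 3 fell at the high dose. Tomm70, an import receptor, and Hspa9, the import motor chaperone, fell in the obese control (-0.64 ± 0.05 (adjusted p = 1.8e-08) and -0.37 ± 0.03 (adjusted p = 6.9e-09)) and rose with orlistat (0.51 ± 0.05 (adjusted p = 3.3e-07) and 0.38 ± 0.03 (adjusted p = 6.7e-09)). No row was found for the symbols Mt-rnr1 and Mt-rnr2 of the mitochondrial ribosomal RNAs.

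The positions of the members that the results turn on are given as the table lists them, and their build was named in no source used here. Mrpl54 lies on chromosome 7, 11321057 to 11323577, plus strand, Mrps18b on chromosome 20, 3344870 to 3350927, plus strand, Mrps7 on chromosome 10, 104155805 to 104158839, plus strand, Mrpl14 on chromosome 9, 17687622 to 17698569, minus strand, Mrpl58 on chromosome 10, 103956019 to 103962515, plus strand and Mrpl3 on chromosome 8, 113603533 to 113626893, plus strand. Of the 76 members 12 overlap another gene, 7 of them a gene that passed the filter and lies on the other strand. The strand setting of the counting was named in no source used here, so reads of Mrpl43 and Twnk, Mrps18a and Rsph9, Mrps7 and Gga3, Mrpl21 and Ighmbp2, Mrpl49 and Syvn1, Mrpl47 and Actl6a, and Mrpl30 and Mitd1 may be shared where they overlap.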

How the data were processed

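The authors deposited 1 table of FPKM for 33657 rat genes in 18 liver libraries, with gene length, position and type per the file headers. The submitters' processing notes name CASAVA 1.7, Bowtie 0.12.2 and the build mm8, a mouse build, while the table holds rat genes. No source used here gives the rat build, the annotation or the strand setting. Per the labels' protocols 1 µg of RNA per sample went into an Illumina library kit. FPKM times gene length was a whole multiple of a single step for 100% of values in each library (tolerance 0.001 reads), which gave the reads per gene. The authors' scaling total was 0.966 to 1.05 times their sum. That factor was 0.996 to 1.01 times a trimmed-mean composition factor (TMM) computed from the recovered reads, and no source used here states how it was made.

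Differences were tested with limma 3.58.1 (R 4.3.3) on log2(FPKM + 1), with a pseudocount of 1, a mean-variance trend and all 6 groups in 1 fit, for the 11945 genes that reached 1 FPKM in 3 or more libraries. P-values were two-sided and adjusted by the Benjamini-Hochberg method over all of these. With 3 libraries against 3, an exact permutation test of 1 gene cannot give a p below 0.1. The code of the fit was run on simulated libraries with known changes in few genes. Many more genes were called in the real libraries, so that run checks only the code and not these calls. No pair of libraries of the same group had values alike within sampling noise, and pairs from different groups were not checked in this way. Named members were, per comparison, up to 5 rises and 5 falls among called members without overlap, the 6 smallest F-test p-values, the 3 highest and 3 lowest levels, members below the filter, the 2 widest and 2 narrowest spreads, and up to 3 genes per pathway list. The members, lists, motifs and rule were chosen with earlier results of these data known. Replicate numbers did not pair libraries: same-numbered libraries of different groups had residual correlations of -0.09 to 0.07. Alternatives were a pseudocount of 0.1, no filter, a filter of 5 FPKM, TPM, quantile normalization, limma voom on the recovered reads, only the 2 groups compared, a replicate block, each library left out and, chosen after seeing the data, a lowess trend with gene length removed from each library.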

Additional observations from a re-analysis of the deposited data

How the results depend on the processing

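Over 54 called differences of named members, none changed sign under the alternatives run. Counts of members called are given as higher and lower. The shares of all tested genes in TPM stand above with each comparison except high dose against orlistat. For the fits with no filter, only 2 groups, a replicate block or 1 library left out, such shares are not given. Those counts can be read only beside the main counts. TPM gave 20 and 7 in obese against normal control, 5 and 22 with orlistat, 7 and 15 at the medium dose, 8 and 19 at the high dose, and 5 and 5 in high against low dose, where the main counts were 41 and 1, 1 and 46, 1 and 26, 2 and 43, and 1 and 25. With the length trend removed, an alternative chosen after seeing the data, 4 members fell in obese against normal control, 2 rose and 30 fell with orlistat, 2 rose at the medium dose, 7 rose and 27 fell at the high dose, 12 fell in high against low dose, and 1 rose in high dose against orlistat. Quantile normalization left 0 lower members in obese against normal control, 2 higher with orlistat and 0 higher at the low dose. Among all tested genes these shares were 26.7%, 27.3% and 17.8%. Fitting only the 2 groups compared left 0 higher with orlistat, 0 at the medium dose, 1 at the high dose and 0 in high against low dose, and 0 lower in high dose against orlistat. Without the filter 0 members were higher at the low and medium doses, 1 at the high dose, 0 in high against low dose and 1 in high dose against orlistat. The voom fit left 0 higher in high against low dose (15.3% of all tested genes). With the replicate number as a block, although the numbers did not pair the libraries, 40 members rose in obese against normal control and 45 fell with orlistat, and the 1 higher member in high against low dose was lost (0); no other count moved by over 1.5 times. Leaving out 1 library at a time gave 33 to 40 higher and 0 to 1 lower in obese against normal control, 0 to 1 and 39 to 47 with orlistat, 0 to 1 and 16 to 20 at the low dose, 0 to 1 and 25 to 29 at the medium dose, 1 to 3 and 37 to 43 at the high dose, 0 to 1 and 20 to 27 in high against low dose, 1 to 6 and 0 to 1 in high dose against orlistat, and 45 to 51 in the F-test. Of 1458 values for these under the alternatives, 1354 stayed on their side of the threshold and 104 lost the call, all of them for Mrpl12, Mrpl15, Mrpl37, Mrpl52 and Mrps12 in high dose against orlistat, Mrpl3 with orlistat and in high against low dose, Mrps10, Mrps5, Mrps35, Mrpl46, Mrpl22, Mrpl45 with orlistat, Mrps18a and Mrps18c. The voom fit called 3286 genes higher (27.5%) and 3533 lower (29.6%) in obese against normal control, beside 41 and 1 members (56.2% and 1.37%). With orlistat it called 3047 genes higher (25.5%) and 3084 lower (25.8%), beside 1 and 46 members (1.37% and 63.0%). Depth limited the lowest members, with 2 to 309 reads per library for Mrpl30 beside 577 to 1256 for Mrpl54.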

Other observations

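The name rule leaves out 9 rows that the table describes as mitochondrial ribosomal proteins. Of these, 3 have lower-case symbols, and each is given for a comparison chosen after its values were seen. The first, mrpl11, measured 26.2, 27.6 and 26.3 FPKM in the obese control and 26.1, 21.6 and 21.7 FPKM at the high dose (-0.20 ± 0.06 (adjusted p = 0.0082)). The second, mrpl9, measured 19.6, 18.1 and 17.7 FPKM in the obese control and 21.3, 20.7 and 22.3 FPKM at the low dose (0.21 ± 0.07 (adjusted p = 0.034)). The last, mrpl24, at the tunnel exit, measured 15.1, 14.5 and 13.9 FPKM in the obese control and 11.9, 11.7 and 13.6 FPKM with orlistat (-0.21 ± 0.06 (adjusted p = 0.005)). The other 6 are copies or likely copies of members, and reads of near-identical copies cannot be told apart from this table.

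Some rows switched between high and low within groups. LOC103692169, described as protein L53 while the member Mrpl53 was at 0, stood at 0.261 to 2.02 FPKM in 12 libraries and at 25.8 to 54.9 FPKM in 6, with libraries of both kinds in 5 of the 6 groups. Mrpl30 stood at 0.036 to 0.290 FPKM in 7 libraries and at 1.85 to 4.13 FPKM in 11, again mixed within 5 of the 6 groups, while Mitd1, which overlaps it on the other strand, varied from 1.83 to 2.92 FPKM. Mrpl1 varied from 0.535 to 5.32 FPKM (coefficient of variation 41.2% over 18 libraries) and its copy LOC100359687 from 2.35 to 7.72 FPKM (43.3%), while their sum varied less (21.2%), from 5.39 to 10.5 FPKM. Mrpl1 and Mrpl30 were not called in any of the 7 comparisons.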
